A study of Mus musculus with 32 samples.

Results

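The regions described here are 338 of the 874 stretches of RNA that the authors' deposited list of Ago2 CLIP regions matches to microRNAs of the mouse Mirg locus. They are those left once every region matched to 19 named microRNAs of that locus was removed. Among the 19 were miR-379-5p, miR-382-5p, miR-541-5p, miR-495-3p and miR-543-3p. The removal itself used neither a CLIP value nor an expression value. All regions of the list had been found by CLIP, however. How the matched ones were chosen from all listed regions was not given in the sources used here. The 338 regions held 352 matched sites, 343 of them distinct, since a site shared by more than 1 region counts in each. The regions lay in 288 genes, and 61 of those genes also held one of the 536 removed regions. They carried 18 labels that stand for 19 microRNAs, since 1 label joins miR-376b-5p and miR-376c-5p. A working description of the set as mostly miR-666 and miR-3072-3p was not borne out. Either arm of miR-666 accounted for 67 regions (19.8%), miR-3072-3p for 34 (10.1%), and both together for 100 (29.6%), while the labels of miR-376a, miR-376b and miR-376c also accounted for 67 (19.8%). Another 3 regions carried the label miR-487-3p, which stayed in because the removal list spells its name miR-487b-3p; 336 regions remain without the 2 that had no other label.

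The study compared hybrid mouse embryonic stem cells (ESCs, day 0) with induced neurons (iNs, day 10), which were made from ESCs by switching on a TetO-Ngn2 transgene with doxycycline. The genotype was Mirg(fl/+) in control cells and Mirg(Delta/+) in deletion cells, whose maternal copy of miR-379/410 is removed. ESCs were grown in FBS and LIF. Small RNA and ribosomal-RNA-depleted RNA were each sequenced from 3 libraries (A, B and C) per cell type and genotype, and the CLIP was done on UV-crosslinked control iNs expressing either HA-Ago2 or Ago2 without a tag, with anti-HA beads and 2 replicates each of input and immunoprecipitate. Nothing in the labels says that the libraries came from separate cultures, so a p-value reflects the spread among libraries alone, which may be technical. The CLIP values are the authors', with the replicates not kept apart, and are described without a test.

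Argonaute 2 (Ago2) is guided by a microRNA to messenger RNAs that pair with the microRNA's seed, bases 2 to 8 from its 5′ end, and such pairing usually lowers the stability or the translation of the messenger RNA. CLIP crosslinks the protein to the RNA it touches and sequences the fragments that come down with it. The miR-379/410 cluster lies in the imprinted Dlk1-Dio3 domain, is transcribed from the maternal chromosome, is found in placental mammals and is expressed in neurons.

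The matched microRNAs are described by their seeds, although the way the authors matched sites to microRNAs was not given in the sources used here. Mature sequences were read from RefSeq (GRCm38.p6) for 17 of the 19 and those that the results turn on are printed, with the seed in capitals; miR-376c-3p and miR-487b-3p are given by name only. The first set holds 6 of the microRNAs with 20 or more regions, including miR-666-3p and miR-3072-3p, and the other arm of miR-666, which share no seed with each other.
miR-666-3p: gGCUGCAGcgugaucgccugcu
miR-666-5p: aGCGGGCAcagcugugagagcc
miR-3072-3p: uGCCCCCUccaggaagccuucu
miR-1197-3p: uAGGACACauggucuacuucu
miR-299a-3p: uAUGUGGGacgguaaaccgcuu
miR-668-3p: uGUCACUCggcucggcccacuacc
miR-667-3p: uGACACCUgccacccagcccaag

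The next 4 are related to each other. The 5p arms of miR-376b and miR-376c share 1 seed and so cannot be told apart by a seed match, while the 3p arms of miR-376b and miR-376a have different seeds.
miR-376b-5p: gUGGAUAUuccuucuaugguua
miR-376c-5p: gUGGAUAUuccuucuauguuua
miR-376b-3p: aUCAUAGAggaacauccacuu
miR-376a-3p: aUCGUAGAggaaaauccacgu

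The last set holds labels whose own microRNA was scarce in iNs, each with any other RefSeq microRNA that has the same seed. miR-412-3p shares its seed with miR-1983 of chromosome 13, and miR-411-3p shares its seed with miR-379-3p of the cluster, whereas no other entry shared the seed of miR-485-3p or miR-758-3p.
miR-412-3p: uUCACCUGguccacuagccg
miR-1983: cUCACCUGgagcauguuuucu
miR-411-3p: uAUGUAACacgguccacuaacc
miR-379-3p: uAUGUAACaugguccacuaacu
miR-485-3p: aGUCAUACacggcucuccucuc
miR-758-3p: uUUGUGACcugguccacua

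The hairpins of the matched microRNAs lie on chromosome 12. All but Mir3072 lie between Mir379, which starts at 109709060, and Mir410, which ends at 109743795 (GRCm38.p6). Mir3072 (109747878 to 109747960) lies 4083 bases beyond Mir410, within the span of the host transcript Mirg (109734981 to 109749458). The ends of the deleted stretch were not given in the sources used here.

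By label, miR-666-3p had 57 regions, miR-3072-3p 34, miR-412-3p and miR-376c-3p 23 each, miR-1197-3p 22, and miR-299-3p, miR-668-3p and miR-376b-3p 21 each. A further 20 regions were matched to miR-667-3p, 17 each to miR-485-3p and miR-758-3p, 16 each to miR-409-5p and miR-411-3p, 15 to the joint label of miR-376b-5p and miR-376c-5p, 10 to miR-666-5p, 9 to miR-376a-3p and 6 to miR-412-5p. The set is thus spread over many microRNAs, and 14 regions held 2 sites. Of the 352 sites, 299 were 7 bases long and 48 were 8 bases long, 271 lay wholly inside their region and the other 81 partly inside it. The regions were short, with a median of 46 bases against 32 over all 22400 listed regions. Of the 338 regions, 330 lay inside the RefSeq span of their named gene, and 298 of these (90.3%) lay within 5000 bases of the gene's 3′ end, where 3′ untranslated regions are found.

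Only 1 member site fell in a stretch for which reference sequence was at hand, a region of Slc4a8, a sodium-coupled bicarbonate transporter of neurons, on the plus strand of chromosome 15 (GRCm38.p6). It is shown because the letters that pair with the seed of miR-299-3p, CCCACAT, can be seen in it (in capitals). The same 7 letters occurred in 0.155% of the first 30 bases of 32851 RefSeq promoter entries on the given strand and in 0.323% on either strand. The deposited list had already matched this site to miR-299-3p, so finding the letters there does not test the match. The sequences of the other regions were not analysed here.
Slc4a8, chr15:100815806-100815835, plus strand: acatccagctaCCCACATaccagcagccag

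The deposited log2 fold of HA-Ago2 over untagged Ago2 immunoprecipitate had a median of 1.33 over the 338 regions (quartiles 0.45 and 2.50, lowest −0.95, highest 5.82). This value was at least 1 in 198 regions (58.6%), against 66.8% of the 536 other matched regions (median 1.63) and 18.4% of all 22400 listed regions (median −0.13). The member regions thus lay well above the whole list in this enrichment and somewhat below the other matched regions. How the authors chose the matched regions from the whole list was not given, and the part of that choice in this difference was not tested. The log2 fold over input told the sets apart less, with medians of 2.76, 2.79 and 2.22 in the same order. A deposited −log10 p of at least 3 over untagged Ago2 was given for 82 of the 338 regions (24.3%) and of at least 5 for 35 (10.4%). The values are coarse, since 137 of the 338 regions carried exactly the same log2 fold and −log10 p over untagged Ago2 as another member.

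**Figure D1:**
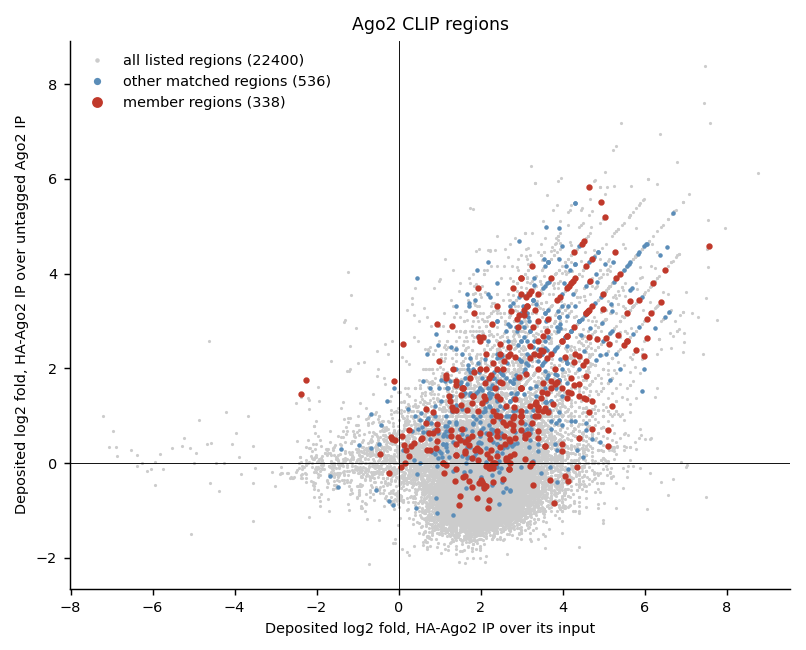
Deposited log2 fold of each region over input (horizontal axis) and over untagged Ago2 (vertical axis); grey points are all 22400 listed regions, blue the 536 other matched regions and red the 338 member regions. Member regions have a median of 1.33 on the vertical axis against −0.13 for all listed regions.

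The label with the highest median fold over untagged Ago2 was miR-485-3p (2.58 over 17 regions), followed by miR-376b-3p (1.71) and miR-299-3p (1.67). The labels with the most regions lay lower, with 1.18 for miR-666-3p and 1.09 for miR-3072-3p. The lowest medians were those of miR-487-3p (0.37 over 3 regions), miR-412-5p (0.47 over 6 regions) and miR-666-5p (0.65 over 10 regions). Within each of miR-666-3p, miR-3072-3p, miR-412-3p, miR-376c-3p, miR-1197-3p and miR-299-3p the regions ranged from below 0 to above 4, so that the spread inside a label was wider than the differences between their medians.

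The gene with the highest value was Zbtb7a, which encodes a zinc finger repressor of the POK family. It held 4 member regions, of which 3 were matched to miR-3072-3p with log2 folds over untagged Ago2 of 5.82 (chr10:81151891-81151900, plus strand), 5.52 and 4.08, and 1 to miR-758-3p with 3.85. The first 2 of them adjoin (81151875 to 81151890 and 81151891 to 81151900). Nfia, which encodes a nuclear factor of glial and neuronal development, followed with 5.20 (miR-1197-3p), Vma21, an assembly factor of the vacuolar proton pump, with 4.69 (miR-412-3p), and Six4, a homeodomain factor, with 4.64 (miR-485-3p). The region with the highest −log10 p over untagged Ago2 among these was in Tnrc6a, which encodes the GW182 protein that Argonaute recruits, with 17.42 and a log2 fold of 4.58 (miR-409-5p; chr7:123194194-123194212, plus strand). For miR-666-3p the top regions were in Atl3 (4.45, a region that also carries a miR-299-3p site), Nfib (3.69), Sgpl1 (3.52), Tns3 (3.45) and Hipk3 (3.41).

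Of the 288 genes, 42 held 2 or more member regions, and 246 held 1. However, 18 member regions touched or overlapped another, so not all of the 42 genes held separate regions. In Cbx6, Map1b and Tsc22d1 both regions were parts of 1 stretch under 1 label. Among the 42, Ago4 held regions matched to miR-411-3p (3.58) and miR-1197-3p (3.31). Ago1 held regions matched to miR-409-5p (2.69) and miR-1197-3p (2.26), so that both of these Argonaute genes and Tnrc6a were among the members. Crebrf, which encodes a regulator of CREB3 factors, held 2 adjoining miR-485-3p regions (4.16 and 3.85). Slc17a6, which encodes the vesicular glutamate transporter VGLUT2, held a miR-299-3p region (3.05) and a joint miR-376b-5p and miR-376c-5p region (1.58). The 4 regions of the non-coding RNA Snhg11 were weak, at 0.27 to 0.50.

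The number of regions under a label did not follow the level of its microRNA in iNs. Levels are given in CPM, which sets the counts of a microRNA against the sum of all mature microRNA counts of its library (for genes, below, against all gene counts). In control iNs, miR-666-3p had 543.9, 456.8 and 693.1 counts in libraries A, B and C (389 ± 68.5 CPM, SD, n = 3) and miR-3072-3p had 104.0, 78.0 and 89.0 (62.3 ± 4.88 CPM). miR-412-3p, with 23 regions, had 1.1, 0.2 and 6.2 counts, and miR-758-3p, with 17 regions, had 4.1, 2.2 and 1.8. At the other end, miR-376b-3p had 3935.0, 4008.1 and 3655.4 counts (2690 ± 296 CPM) for 21 regions, and miR-412-5p reached 2040 ± 175 CPM for 6 regions.

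Of the 18 labels, 13 stood for a microRNA of at least 50 CPM in control iNs and 5 did not (miR-412-3p, miR-485-3p, miR-758-3p, miR-411-3p and miR-666-5p). The 78 regions matched only to these 5 (23.1%) had a median log2 fold over untagged Ago2 of 1.32 and a share of 57.7% at 1 or more. The 260 regions with a label at or above 50 CPM had 1.33 and 58.8%. The CLIP enrichment was thus nearly the same on both sides of 50 CPM of the label's own microRNA. For 2 of the 5 labels under it, with 23 and 16 regions, another microRNA with the same seed lay above it. miR-1983 had 5930 ± 578 CPM in control iNs against 1.66 ± 2.18 for miR-412-3p. In deletion iNs miR-1983 had 7550 ± 1140 CPM, so that this seed was still present there. miR-379-3p, which has the seed of miR-411-3p, had 105 ± 20.7 CPM against 8.14 ± 5.51, and 0.371 ± 0.642 CPM in deletion iNs.

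**Figure D2:**
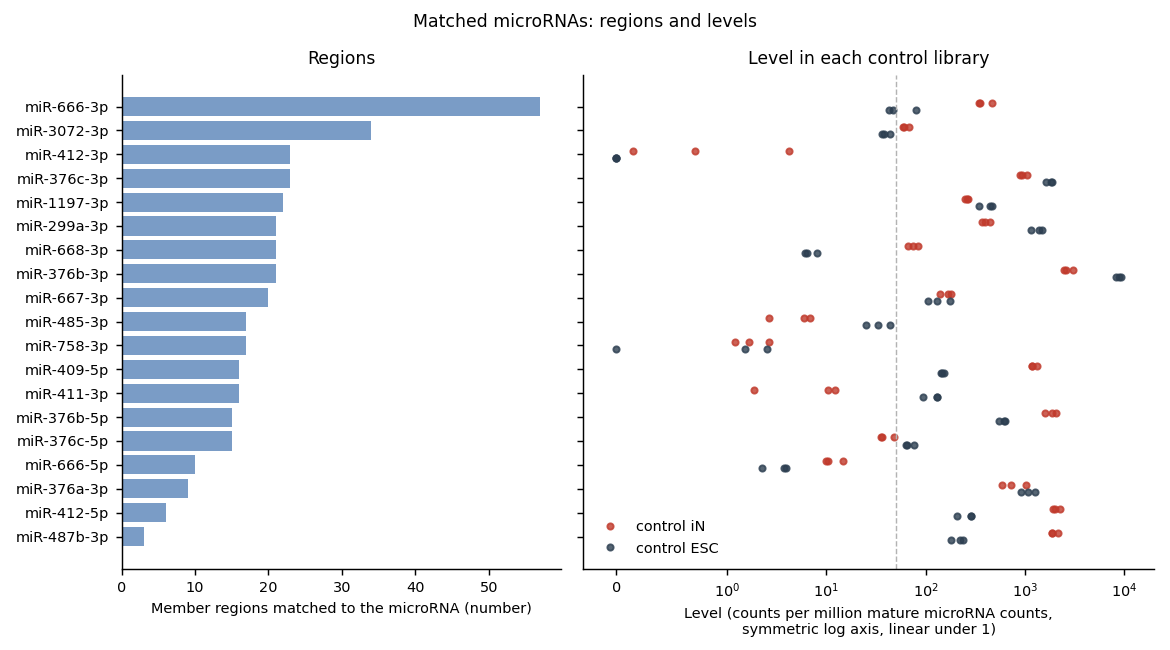
Number of member regions matched to each microRNA (left bars; miR-376b-5p and miR-376c-5p share the same 15 regions) and its level in each of 3 control iN and 3 control ESC libraries (right points, CPM on a symmetric log axis; the dashed line marks 50 CPM). miR-412-3p and miR-758-3p have 23 and 17 regions but lie at the left of the level axis, while miR-376b-3p lies at its right with 21 regions.

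All of the matched microRNAs were at or near 0 in the deletion libraries. For miR-412-3p, miR-758-3p and miR-485-3p this says little, as control iNs already held only 7.4, 8.1 and 22.2 summed counts. Their falls in iNs could be bounded only at 1.61-fold, 1.76-fold and 4.82-fold or more. miR-666-3p and miR-3072-3p had 0 counts in each of the 3 deletion iN libraries, at least 367-fold and at least 58.8-fold lower than in control iNs (against a floor of 3 counts over the group; floors and intervals cover counting error only). Abundant members kept a few counts. miR-376b-3p had 6, 1 and 4 counts in deletion iNs and was 686-fold lower, and miR-412-5p had 6, 4 and 5 counts and was 387-fold lower. In ESCs, miR-3072-3p fell from 33.0, 33.0 and 43.0 counts to 0 in each library (at least 37.0-fold), and miR-376b-3p from 6173.1, 7513.7 and 10994.7 counts to 6, 4 and 1 (2280-fold). Mir3072, although outside the stretch from Mir379 to Mir410, was thus as low in deletion libraries as the members inside it. With edgeR's quasi-likelihood test, all 15 matched microRNAs with enough counts to be tested fell in iNs, where 24.2% of the 433 microRNAs tested were called lower. All 15 tested in ESCs fell as well, where 13.8% of 450 were called lower. This count checks the deletion and is no finding, since these microRNAs entered the test through their control libraries.

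Between the control cell types the matched microRNAs moved in both directions. With edgeR, 8 of the 17 tested were higher in control iNs than in control ESCs (41.5% of the 523 microRNAs tested were called higher) and 7 were lower (44.2%), shares close to those of all microRNAs. Among those called higher were miR-668-3p, with a log2 fold change of 3.52 ± 0.29 (SE), miR-409-5p (3.28 ± 0.16), miR-412-5p (3.18 ± 0.18) and miR-666-3p (2.94 ± 0.27). Among those called lower were miR-411-3p (−3.62 ± 0.36), miR-485-3p (−2.56 ± 0.38), miR-299a-3p (−1.50 ± 0.17) and miR-376b-3p (−1.49 ± 0.15). The 2 arms of a hairpin did not always move together: miR-376b-5p had a log2 fold change of 1.84 ± 0.16 and miR-376b-3p one of −1.49 ± 0.15, a difference that was not itself tested. Scaling to all features of the files, rather than to mature microRNAs, left 4 called lower, and miR-1197-3p turned from −0.45 to 0.05. The mature share of the counts differed between the cell types, at 37.0 to 38.6% in control iNs and 18.0 to 27.9% in ESCs. In total the matched microRNAs made up 1.29% of mature counts in control iNs and 1.51% in control ESCs.

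The RNA libraries held 14904735 to 21499106 counts and the small RNA libraries 3038112 to 4216346. Mirg, the host transcript of the locus, had 31.1, 33.0 and 38.3 CPM in control iNs and 0.103, 0.0 and 0.104 in deletion iNs, which checks the labels. Neurog2, the gene behind the inducing transgene, differed between the genotypes in iNs, at 220, 218 and 245 CPM in control and 661, 596 and 596 in deletion libraries. Its log2 fold change was 1.44 ± 0.06 in iNs (edgeR, adjusted p = 1e-09) and 0.07 ± 0.11 in ESCs (adjusted p = 0.817), and counts of the transgene and of the endogenous gene cannot be told apart here. The summed level of 7 neuron markers ran from 1160 to 1400 TPM in the control iNs, from 1480 to 1700 in the deletion iNs, and from 17.8 to 25.3 in ESCs. Stem cell markers summed to 3.15 to 4.09 TPM in the controls and 2.25 to 2.44 TPM with the deletion, with Nanog, Sox2 and Tdgf1 under 1 TPM in both, and dividing-cell markers to 0.77 to 1.4 and 1.41 to 1.79, with Mki67, Top2a and Ccnb1 under 1 TPM. Of the 5 glia markers, Gfap, Aqp4 and Olig2 were under 1 TPM in both, and their sum was 7.63 to 9.47 and 10.8 to 13.1 TPM. The part of Neurog2 and of these marker levels in the iN results that follow was not tested, and in bulk RNA fewer cells of a type and less RNA per cell cannot be told apart.

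The genes of the member regions were mostly well expressed in the cells in which the CLIP was done. Their median was 20.5 TPM (transcripts scaled for length and depth) in control iNs (quartiles 9.16 and 44.4), against 10.3 TPM over the 13416 gene entries of at least 1 TPM, and 13.0 TPM in control ESCs. However, 17 of the 288 were under 1 TPM in control iNs. Fgf4, a growth factor of stem cells, was listed at 0 in each control iN library and at 46.13, 41.75 and 42.64 TPM in control ESCs, although its region had a log2 fold over untagged Ago2 of 3.90. Apoe (0.31, 0.82 and 0.61 TPM in control iNs) and Myb (0.0, 0.03 and 0.03) were also ESC genes with a region in the iN CLIP. Of the 17, 6 were under 1 TPM in both cell types, including the neuronal factors Barhl2 and Neurod4.

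In iNs the deletion was accompanied by changes in both directions among the genes of these regions, with more falls than rises. Of the 288 genes, 280 could be tested. With edgeR at an adjusted p under 0.05, 46 (16.4%) were higher in deletion iNs, where 12.4% of all 16028 genes tested were called higher. Lower in deletion iNs were 67 (23.9%), where 13.3% of all genes were called lower. Their median log2 fold change was −0.048 against 0.004 over all genes, so that the typical member gene moved little, and downward. The 343 tested genes that held only other matched regions had 12.8% higher, 21.0% lower and a median of −0.043. The 4784 tested genes with a listed CLIP region and no match to the locus had 12.7% higher, 17.7% lower and a median of −0.022. Those among them with a region at a log2 fold of 1 or more over untagged Ago2 (1468 tested) had 15.9% higher, close to the 16.4% of the member genes, and 18.3% lower. Member genes were also better expressed than the rest, with a median mean log2 CPM of 6.28 against 4.09, and the part of expression level in these shares was not tested. Among genes whose regions were matched to a microRNA of at least 50 CPM the median was −0.059, and among those matched to one under 50 CPM it was −0.014 (both sets chosen after the data were seen).

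By label, the balance of rises and falls differed, although the labels were not tested against each other. Over all 16028 genes tested 12.4% were called higher and 13.3% lower, and over the 280 tested member genes 16.4% and 23.9%. Each label held few genes, and its counts were not tested against these shares. All calls were lower for miR-376c-3p (7 of 23 tested genes) and miR-376b-3p (7 of 21), with edgeR and with DESeq2; at an unadjusted p under 0.05 edgeR gave 2 and 0 rises. The genes of miR-3072-3p gave 2 rises and 10 falls of 30 tested, and those of miR-412-5p 0 rises and 4 falls of 5 (0 rises at an unadjusted p under 0.05, and 0 rises and 2 falls with DESeq2). The opposite balance was seen for miR-1197-3p, with 7 rises and 2 falls of 21, and for miR-412-3p, with 6 rises and 3 falls of 21. miR-666-3p, the label with the most genes, gave 11 rises and 13 falls of 53 with a median of −0.02. Label medians ran from −0.21 (miR-412-5p) to 0.08 (miR-1197-3p).

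**Figure D3:**
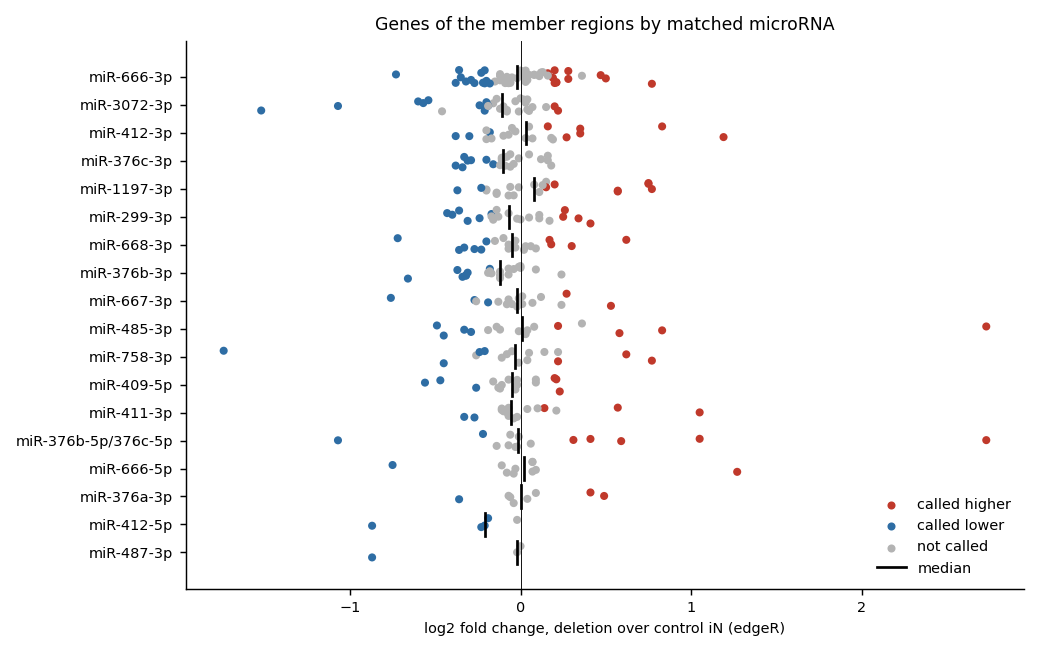
log2 fold change in deletion over control iNs (horizontal axis, edgeR) of each tested gene, grouped by the microRNA its region is matched to; red and blue points are genes called higher and lower, grey points were not called and black bars are medians. The medians of all labels lie close to 0, between −0.21 and 0.08, and single genes such as Txnip at 2.73 and Emp2 at −1.74 lie far from them.

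The largest rise was that of Txnip, which encodes the thioredoxin-interacting protein, an arrestin-like protein that restrains glucose uptake. Txnip had 1.5, 3.42 and 5.33 CPM in control iNs and 21.4, 31.6 and 16.4 CPM in deletion iNs. The groups did not overlap, and the log2 fold change was 2.73 ± 0.28 (edgeR, adjusted p = 5.77e-06). Its single region carried a miR-485-3p site and a joint miR-376b-5p and miR-376c-5p site and had a log2 fold over untagged Ago2 of 3.43 with a −log10 p of 12.99. Jun, an immediate early AP-1 factor with a weak miR-666-5p region (0.53), went from 41.2, 47.3 and 54.7 CPM to 122, 130 and 94.1 CPM, a log2 fold change of 1.27 ± 0.11. Cdk19, a kinase of the Mediator complex, went from 11.3, 11.4 and 13.1 CPM to 26.9, 29.6 and 25.2 CPM (1.19 ± 0.10). Its miR-412-3p region was at 1.64, and miR-1983, which shares that seed, was not lost in deletion iNs. In each of these genes all 3 deletion libraries lay above all 3 control libraries, which was a condition for being named here.

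Rgs8, a regulator of G protein signalling, rose from 15.6, 15.7 and 15.3 CPM to 30.6, 32.7 and 33.1 CPM (1.05 ± 0.08), and held a joint miR-376b-5p and miR-376c-5p region (3.24) and a miR-411-3p region (2.99). Crebrf rose from 29.7, 26.7 and 28.2 CPM to 49.1, 55.3 and 45.8 CPM (0.83 ± 0.08). Its 2 regions, matched to the scarce miR-485-3p, were named above. Nhlh1, a basic helix-loop-helix factor of early neurons, rose by 0.83 ± 0.07 and the non-coding Snhg11 by 0.77 ± 0.09. E2f1, a factor of cell cycle entry, rose by 0.75 ± 0.12, the imprinted zinc finger gene Peg3 by 0.62 ± 0.07 and Zbtb4, a methyl-CpG binding repressor, by 0.59 ± 0.07. The 2 Peg3 regions, matched to miR-758-3p and miR-668-3p, had log2 folds over untagged Ago2 of −0.05 and −0.37. No enrichment over untagged Ago2 was thus seen at this gene, although the log2 folds over input were 2.25 and 1.70. The regions of E2f1 (2.69, miR-1197-3p) and Zbtb4 (2.13, joint miR-376b-5p and miR-376c-5p) were enriched over untagged Ago2.

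The largest fall by the same rule, which asked for a mean log2 CPM of at least 2, was that of Nnat, the imprinted gene of the membrane protein neuronatin. Nnat had 101.0, 122.0 and 116.0 CPM in control iNs and 36.4, 41.9 and 40.3 CPM in deletion iNs, a log2 fold change of −1.52 ± 0.08 (edgeR, adjusted p = 4.38e-09). Its region was matched to miR-3072-3p but was not enriched over untagged Ago2 (−0.12). Emp2, which encodes an epithelial membrane protein, fell further, by 1.74 ± 0.24 on the log2 scale, from 3.83, 3.71 and 4.44 CPM to 1.60, 1.19 and 0.778 CPM, at a low level. Imprinted genes were thus found among both the rises (Peg3) and the falls (Nnat, Mest at −0.21 ± 0.05 and Igf2 at −1.07 ± 0.30), a grouping made after their values were seen. Igf2 was also at a low level, with 1.78, 2.26 and 2.43 CPM in control iNs and 0.618, 0.97 and 1.5 CPM in deletion iNs.

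Cyp51, Msmo1 and Hmgcs1, which encode enzymes of sterol synthesis, fell. Cyp51, the sterol 14-demethylase, went from 399.0, 400.0 and 440.0 CPM to 246.0, 255.0 and 245.0 CPM (−0.73 ± 0.05), and Msmo1, the methylsterol monooxygenase of a later step, from 308.0, 296.0 and 318.0 CPM to 180.0, 190.0 and 191.0 CPM (−0.72 ± 0.05). Hmgcs1, the synthase at the start of the pathway, fell by 0.36 ± 0.05 on the log2 scale; these 3 members were grouped after their values were seen. The groups did not overlap in any of them, which for Cyp51 and Msmo1 was a condition for being named. The regions of Cyp51 and Hmgcs1 were weakly enriched or not enriched, with log2 folds over untagged Ago2 of 0.28 (miR-666-3p) and −0.21 (miR-299-3p). That of Msmo1 had 1.58 (miR-668-3p), above the median of 1.33 over the 338 regions.

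Among regulators, Mycn, the neural MYC family factor, fell from 42.6, 43.5 and 40.9 CPM to 29.1, 29.9 and 28.3 CPM (−0.54 ± 0.06), and Suz12, a core subunit of Polycomb complex PRC2, from 80.9, 63.5 and 76.2 CPM to 46.8, 54.1 and 48.5 CPM (−0.56 ± 0.08). Peli1, a ubiquitin ligase of innate immune signalling, fell by 0.76 ± 0.07 on the log2 scale and Trim56, another ubiquitin ligase, by 0.66 ± 0.17. The call of Trim56 was lost without deletion iN library C (edgeR, adjusted p = 0.0566). The cytoskeletal genes Myo10, a myosin of filopodia, and Arhgef2, a guanine nucleotide exchange factor, fell by 0.75 ± 0.09 and 0.60 ± 0.08, and the zinc finger gene Zfp385a by 0.57 ± 0.06. Myo10 had a miR-666-5p region of 2.28 and Suz12 a miR-409-5p region of 2.52, while the miR-3072-3p regions of Mycn, Arhgef2 and Zfp385a had 0.84, 1.35 and 1.07.

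**Figure D4:**
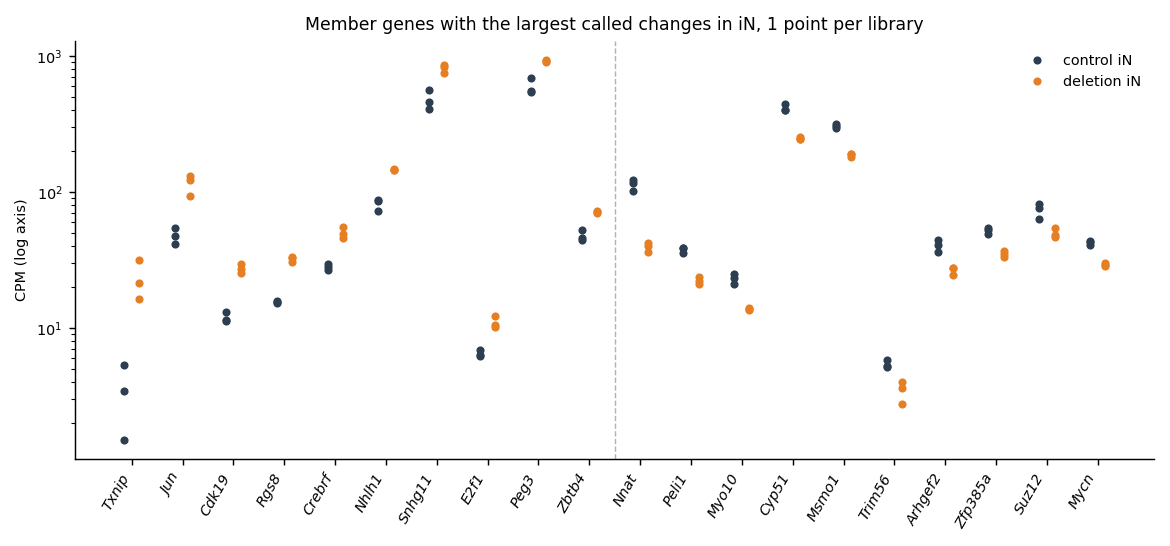
Level of 20 member genes in each iN library (points, CPM on a log axis; dark points control, orange points deletion), with the 10 largest called rises left of the dashed line and the 10 largest called falls right of it. The deletion libraries lie above the control libraries for each gene on the left, from Txnip to Zbtb4, and below them for each gene on the right, from Nnat to Mycn. This separation was a condition for being shown.

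The genes with the strongest CLIP regions moved in both directions or were not called. Of the 10 genes with a region of at least 4.16 on the log2 scale over untagged Ago2, 3 were called higher, 2 lower and 5 were not called. Over all 16028 genes tested 12.4% were called higher and 13.3% lower, and 10 genes are too few to set against these shares. Crebrf, described above (0.83 ± 0.08), had the largest change of these, and Tnrc6a rose by 0.20 ± 0.06. Zbtb7a was called higher by a small margin, from 24.2, 27.5 and 28.6 CPM to 32.0, 31.3 and 30.5 CPM (0.22 ± 0.08, edgeR, adjusted p = 0.046). Nfia had a log2 fold change of 0.13 ± 0.09, Atl3 0.11 ± 0.06, Reck 0.19 ± 0.10, Rgs17 −0.08 ± 0.07 and Satb1 −0.01 ± 0.06, and these 5 did not pass the test. Six4 fell by 0.49 ± 0.08 and Vma21 by 0.30 ± 0.08 on the log2 scale. Slc4a8, whose site is shown above, went from 112.0, 119.0 and 126.0 CPM to 141.0, 140.0 and 142.0 CPM (0.25 ± 0.06). Genes of regions above the median CLIP fold had a median log2 fold change of −0.063, against −0.048 over all member genes, so that the typical such gene did not rise.

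Among the 24 genes of the microRNA pathway (Argonautes, their GW182 partners, deadenylation, decapping and microRNA processing factors), 3 were members: Ago1, Ago4 and Tnrc6a. All 24 were tested, and in deletion iNs 5 were higher (20.8%, against 12.4% of all genes) and 2 lower (8.33%, against 13.3%), with a median of −0.017. Ago4, which encodes one of the Argonautes without slicing activity, rose from 6.49, 7.90 and 7.75 CPM to 11.3, 11.4 and 10.3 CPM (0.57 ± 0.12, edgeR, adjusted p = 0.00248). Tnrc6a rose by 0.20 ± 0.06 (adjusted p = 0.0316), and Ago1 was not called (−0.07 ± 0.06, adjusted p = 0.463). Outside the members, Tnrc6b (0.48), Dcp2 (0.23) and Pan3 (0.20) were higher and Prkra (−0.27) and Cnot6l (−0.22) lower. In ESCs, where edgeR called 1.37% of all genes higher and 0.544% lower, none of the 24 was called by edgeR or by DESeq2, and at an unadjusted p under 0.05 edgeR gave 0 rises and 3 falls.

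In ESCs few genes of the member regions changed, and by little. Of the 280 tested with edgeR, 9 (3.21%) were higher in deletion ESCs, where 1.37% of 16185 genes were called higher, and 4 (1.43%) were lower, where 0.544% were called lower. With the library letter as a replicate block, 22 (7.86%) were higher and 19 (6.79%) lower, against 3.2% and 3.1% of all genes. The call depended on single libraries. Without control ESC library A 5 were higher and 1 lower, without control B 2 and 1, without control C 6 and 2, without deletion A 11 and 4, without deletion B 2 and 0, and without deletion C 4 and 2. The median log2 fold change of the member genes was −0.007 against −0.002 over all genes. Without the block, genes with only other matched regions had 2.68% higher and 0.595% lower. Unmatched genes with a listed region at a log2 fold of 1 or more had 2.6% and 1.17%. Member genes were better expressed than all genes (median mean log2 CPM 5.72 against 3.74), and the part of expression level in these shares was not tested.

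Emp2 had the largest rise in ESCs, from 3.60, 3.83 and 3.15 CPM to 5.77, 5.10 and 5.31 CPM (0.62 ± 0.12, edgeR, adjusted p = 0.0469), a call lost with DESeq2, with all 12 libraries in 1 fit and with any 1 library left out. Amotl2, an angiomotin of cell junctions, went from 99.7, 107.0 and 106.0 CPM to 132.0, 138.0 and 139.0 CPM (0.39 ± 0.04, adjusted p = 0.00407), with a miR-376c-3p region of 2.37. Efna5, an ephrin ligand, rose by 0.42 ± 0.08, Jun by 0.38 ± 0.06 and the basement membrane collagen gene Col4a1 by 0.35 ± 0.05. The falls were Igf2 (−0.55 ± 0.09), the Wnt antagonist Sfrp1 (−0.46 ± 0.09), Txnip (−0.37 ± 0.05) and the bromodomain gene Baz2b (−0.31 ± 0.05). Txnip went from 29.2, 27.8 and 28.6 CPM to 21.9, 22.3 and 21.9 CPM, without overlap (a condition for being named), in the direction opposite to iNs. Apart from Amotl2, each of these 9 genes lost its call without deletion ESC library B. With all 12 libraries in 1 edgeR fit, Txnip (adjusted p = 0.481), Igf2, Jun and Col4a1 lost theirs too.

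The effect of the deletion differed between the cell types for a part of the genes. With edgeR's interaction test over all 12 libraries, 28 of 285 tested member genes (9.82%) had a higher effect in iNs than in ESCs, where 5.01% of 18299 genes did. A lower effect in iNs was called for 50 (17.5%), where 8.5% of all genes did. Genes with only other matched regions had 7.0% higher and 16.3% lower. Unmatched genes with a listed region at a log2 fold of 1 or more had 8.25% and 12.2%. Member genes were better expressed than all genes (median mean log2 CPM 6.2 against 3.84), and the part of expression level was not tested. The median difference of the member genes was −0.040. Without deletion iN library B it turned to 0.012, and 27 member genes (9.47%) were called lower. Txnip had the largest difference (3.09 ± 0.34, adjusted p = 2.92e-05), followed by Ago4 (1.37 ± 0.31, adjusted p = 0.0148) and Slc17a6 (1.29 ± 0.38, adjusted p = 0.0337). In ESCs both of the latter were low, with 0.567 ± 0.0218 CPM in control and 0.325 ± 0.0345 CPM in deletion ESCs for Ago4 and 0.605 ± 0.354 and 0.324 ± 0.107 CPM for Slc17a6. The call of Slc17a6 was lost in 5 of the fits that leave out 1 library, without control ESC C, control iN B, deletion ESC A, deletion ESC B or deletion iN C, with adjusted p up to 0.403.

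Cdk19 (1.27 ± 0.12) and Crebrf (1.04 ± 0.11) followed, and neither had been called in ESCs. On the lower side stood Cyp51 (−0.93 ± 0.07), Peli1 (−0.87 ± 0.09), Msmo1 (−0.86 ± 0.08), Msn, the membrane linker moesin (−0.76 ± 0.07), and Myo10 (−0.72 ± 0.09). Msn rose in deletion ESCs (0.31) and fell in deletion iNs (−0.43). Emp2 had a difference of −2.38 ± 0.27, with a rise in ESCs and a fall in iNs. The sterol genes Cyp51 and Msmo1 thus differed between the cell types as well as within iNs, and Txnip, Emp2 and Msn moved in opposite directions in the 2 cell types.

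**Figure D5:**
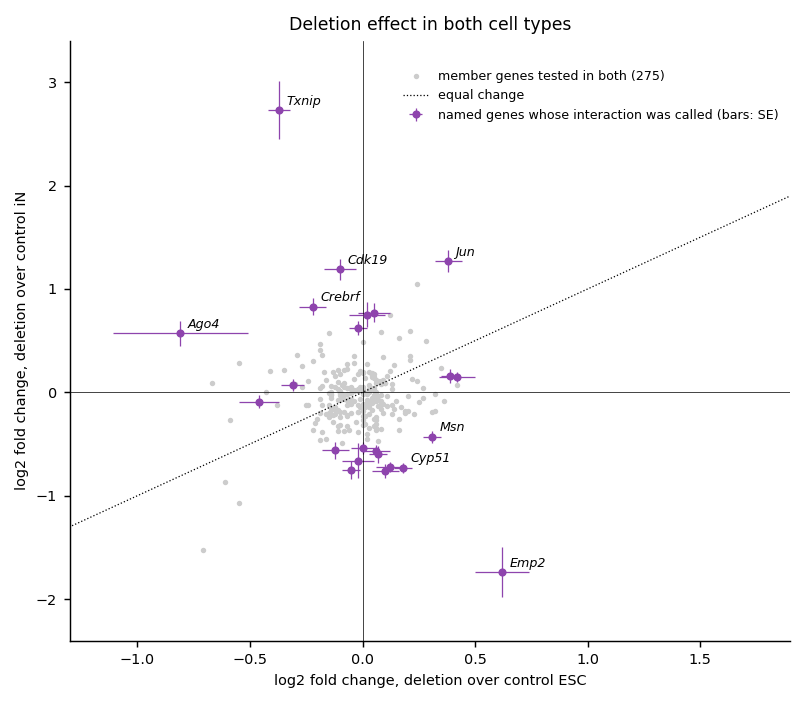
log2 fold change of the deletion in ESCs (horizontal axis) and in iNs (vertical axis) for the 275 member genes tested in both (grey points); purple points with SE bars are 23 named genes whose interaction was called and the dotted line marks equal change. Txnip lies at 2.73 in iNs and −0.37 in ESCs, and Emp2 at −1.74 and 0.62, in opposite quadrants.

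Most of the member genes also differed between the control cell types. With edgeR, 157 of 285 tested (55.1%) were higher in control iNs than in control ESCs, where 43.9% of 17247 genes were called higher, and 111 (38.9%) were lower, where 45.1% were called lower. The median was 0.334 against −0.026 over all genes, so that the member genes were weighted towards iN expression. Genes with only other matched regions had 55.4% and 38.2%, and the weighting was thus shared by them. The 4920 tested genes with a listed region and no match had 45.8% and 46.1%, with a median of 0.0. Those among them with a region at a log2 fold of 1 or more over untagged Ago2 had 51.2% and 41.5%, with a median of 0.246. The CLIP was done in iNs, and the part of this in the weighting was not tested. Among the largest rises were Samd14 from 0.316 ± 0.0569 to 137 ± 9.12 CPM, Nhlh1 from 0.262 ± 0.0709 to 80.2 ± 7.86 CPM, Slc17a6 from 0.605 ± 0.353 to 131 ± 4.43 CPM and Atp2b2, a plasma membrane calcium pump, from 1.28 ± 0.558 to 248 ± 30.7 CPM. Gpr22, a receptor of the brain and heart, had 0.0, 0.0 and 0.0532 CPM in ESCs and 29.1, 25.3 and 27.8 CPM in iNs. In the other direction Fgf4 had 138 ± 3.54 CPM in ESCs and 0 counts in each iN library (at least 2440-fold lower, against a floor of 3 counts over the group). Apoe fell from 248 ± 18.5 to 0.525 ± 0.176 CPM, Zfp36l1, which binds AU-rich elements, from 58.2 ± 3.67 to 0.139 ± 0.109 CPM, Myb from 18.8 ± 0.215 to 0.0704 ± 0.0618 CPM and Tns3 from 190 ± 1.70 to 4.26 ± 0.727 CPM.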

How the data were processed

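RNA-seq and small RNA-seq files of 12 libraries each and the Ago2 CLIP lists were used as deposited. Expected counts and TPM values were deposited by the authors (RSEM, per the file headers), and the CLIP lists hold the authors' log2 fold and −log10 p per region over input or untagged Ago2. The authors' deposited small RNA tables gave a mean normalised count, a signal value over libraries, which named 828 of 1907 mature accessions (99.99% of mature counts; relative tolerance 1e-08). The submitters' processing notes name STAR 2.4.1d, cutadapt 1.4.2, RSEM 1.2.30, SAMtools, DESeq2 and mm10. The peak caller, the way sites were matched and the strand setting were not given in the sources used here, so counts of genes overlapping on opposite strands are uncertain. The members, the gene lists and the tests were chosen with earlier results of these data known.

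Member regions were found by removing every region with a named label, and overlaps used bedtools 2.31.1. Gene symbols were matched for 52403 of 52636 entries, and for 2 of 288 member genes through a RefSeq synonym. Rounded expected counts over all genes, or all mature microRNAs, entered the quasi-likelihood test of edgeR 4.0.16 (R 4.3.3) after filterByExpr at its minimum count 10 and TMM scaling, and p-values were adjusted by Benjamini-Hochberg and called under 0.05. Each SE equals the log2 fold change over the square root of F, and gene CPM uses TMM-scaled totals. The steps were tested on simulated counts. Named were the 10 largest rises and falls in iNs, and the 5 largest in the other comparisons, among called member genes whose groups did not overlap and whose mean log2 CPM reached 2, the top regions of each label and genes with 2 or more regions; other names were chosen after their values were seen. Library letters were checked for pairing by the correlation of same-letter deviations. In the ESC RNA comparison all were over 0.1 (0.348, 0.107 and 0.136), so the blocked counts stand beside the result. In the other comparisons at least 1 was not, although the small RNA ESC comparison had 0.536, 0.031 and 0.362. Alternatives were DESeq2 1.42.0, its size factors, no filter, the block, a fit of all 12 libraries, leaving out each library, and other choices of regions.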

Additional observations from a re-analysis of the deposited data

Results flagged for a closer look

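The effect of the deletion differed between iNs and ESCs by edgeR's interaction test in 24 genes that were named for a change. The differences (log2 fold change in iNs minus that in ESCs) were higher in iNs for Txnip (3.09), Ago4 (1.37), Slc17a6 (1.29), Cdk19 (1.27), Crebrf (1.04), Jun (0.87), E2f1 (0.71), Snhg11 (0.70), Peg3 (0.63), Baz2b (0.36) and Sfrp1 (0.35). They were lower in iNs for Emp2 (−2.38), Cyp51 (−0.93), Peli1 (−0.87), Msmo1 (−0.86), Msn (−0.76), Myo10 (−0.72), Arhgef2 (−0.69), Zfp385a (−0.65), Trim56 (−0.65), Mycn (−0.56), Suz12 (−0.46), Efna5 (−0.28) and Amotl2 (−0.25). Neurog2 rose in deletion iNs and was not called in ESCs, and its part in these differences was not tested.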

How the results depend on the processing

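The median log2 fold change of the member genes in iNs stayed below 0 in every fit, at −0.063 above the median CLIP fold, −0.059 for genes with no other matched region, −0.059 and −0.014 for microRNAs of at least and under 50 CPM (chosen after seeing the data), and −0.056 to −0.029 with 1 library left out. In ESCs the share called lower was 0.702% with all 12 libraries in 1 fit and 2.17% above the median CLIP fold, whose median was −0.055. With the replicate block 7.86% were called higher and 6.79% lower, and with 1 library left out 0.714 to 3.93% and 0.0 to 1.43%. The block moved no other share of calls by over 1.5 times. Outside the ESC RNA comparison at least 1 letter fell short of the check used. The median interaction was −0.032 without a filter, −0.027 above the median CLIP fold, −0.056 for genes with no other matched region and −0.056 to 0.012 with 1 library left out, where the share called lower ran from 9.47 to 17.5%. In control iNs against ESCs the median was 0.299 without a filter, 0.158 above the median CLIP fold, 0.293 for genes with no other matched region, 0.351 without regions matched only to miR-487-3p (chosen after seeing the data) and 0.321 to 0.371 with 1 library left out. Scaling small RNA to all features left 4 matched microRNAs lower, and miR-1197-3p turned to 0.05. A −log10 p of at least 5 kept 35 of the 338 regions. The cause of these shifts was not tested, beyond the smaller sets and samples used. Of the other values, for single genes and microRNAs, 1081 kept their direction and side of the threshold, 60 lost a call and 9 gained one.

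The planned search of the regions for seed matches, with shorter seeds and wider windows, was not run, since no genome was used here. Requiring 50% overlap or either strand left 338 regions in both CLIP lists, which hold the same regions. Depth limits miR-412-3p, miR-485-3p, miR-758-3p and miR-411-3p, which had too few counts in iNs to be tested, and member genes near 1 CPM.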
